A study of Rattus norvegicus with 6 samples.

Results

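The secreted ligands that act on blood and lymph vessels were followed in mammary tumors of older and younger rats. The set held 10 genes: Angptl1, Angptl2 and Angptl4 of the angiopoietin-like family, the angiopoietins Angpt1 and Angpt2, and the VEGF family genes Vegfa, Vegfb, Vegfc, Vegfd and Pgf. The genes were picked by symbol from the 30562 rows of the count table with their levels in older and younger tumors already known, so the differences between the age groups are given here as a description and without a test. Of the 10 genes, 9 passed the filter on low counts and Vegfd did not.

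Bulk RNA-seq counts were available for 6 tumors of F344 rats, each tumor a single library. Every rat of both groups received a 50 mg pellet of MPA, a progestin, with a 90 day release, and a week later a single gavage of the carcinogen DMBA at 65 mg per kg. The 3 younger rats (tumors 157, 158 and 167) were bought as virgins from a commercial supplier and dosed at 4 months, and the 3 older rats (tumors 102, 107 and 116) came from an aging rodent colony and were dosed at 21 to 23 months, with tumors collected over 10 months of follow-up. The 3 younger tumors were all the carcinomas that group gave, while the older ones were picked for having enough tissue, so the older group is a selection and age, source and selection cannot be told apart. Totals ran from 3508571 to 4743502 counts in older tumors and from 3768342 to 6525830 in younger ones. Levels are given as CPM, counts scaled to a common library total with TMM factors. The floor was taken as 3 counts, which equal 0.516 to 0.99 CPM, depending on the scaled total of the tumor. The labelled tissue was checked by epithelial markers, of which Epcam lay between 290 and 480 CPM in every tumor. It was lower in every older tumor (290 to 339 CPM) than in any younger one (387 to 480 CPM). Other epithelial markers were less even. Krt5 ran from 40.6 CPM in tumor 102 to 717 CPM in tumor 157, and Krt8 from 96.8 CPM in tumor 107 to 324 CPM in tumor 167.

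Blood vessels respond to 2 main families of secreted ligands. Angiopoietin 1, made by cells around the vessel, activates the endothelial receptor TIE2 (gene Tek) and keeps vessels quiet, whereas angiopoietin 2, released by endothelial cells, mostly blocks that signal. VEGF-A acts through VEGFR2 (gene Kdr) to make vessels sprout and leak and is induced by low oxygen, and in mammary tumors as elsewhere it is a main driver of new vessels. Angiopoietin-like proteins resemble angiopoietins in structure but do not bind TIE2.

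Promoters are shown for 4 ligands that the values below turn on: Angptl1, the first ligand of the set, Vegfa and Pgf, which were lower in older tumors, and Angptl4, which had the largest SD within groups among the 9 ligands tested. Of the 10 ligands, 8 matched an entry of the RefSeq promoter table of build GRCr8, with 9 promoters in all, and Angpt1 and Angpt2 were not matched. Each window runs from 250 bases before to 50 bases after a transcript start, written 5′ to 3′ on the gene's strand. Capitals mark the core of the hypoxia response element, searched as ACGTG or GCGTG and, on the opposite strand, as CACGT or CACGC. Angptl1 (gene ID 679942) is shown at chr13:71513097-71513396 on the plus strand, the first Vegfa start (gene ID 83785) at chr9:22452604-22452903 on the plus strand, Pgf (gene ID 94203) at chr6:110557698-110557997 on the minus strand and Angptl4 (gene ID 362850) at chr7:15258632-15258931 on the minus strand.
Angptl1: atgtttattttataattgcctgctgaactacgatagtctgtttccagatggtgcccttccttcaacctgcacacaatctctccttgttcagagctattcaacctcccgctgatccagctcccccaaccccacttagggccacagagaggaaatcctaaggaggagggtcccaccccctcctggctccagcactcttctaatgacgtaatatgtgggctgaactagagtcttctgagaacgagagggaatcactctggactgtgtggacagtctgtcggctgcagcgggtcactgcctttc
Vegfa: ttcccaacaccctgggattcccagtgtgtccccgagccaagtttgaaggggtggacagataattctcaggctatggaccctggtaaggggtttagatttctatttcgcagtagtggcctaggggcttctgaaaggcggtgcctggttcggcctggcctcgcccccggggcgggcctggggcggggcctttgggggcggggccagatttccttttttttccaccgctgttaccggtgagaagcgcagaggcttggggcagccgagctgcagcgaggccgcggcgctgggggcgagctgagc
Pgf: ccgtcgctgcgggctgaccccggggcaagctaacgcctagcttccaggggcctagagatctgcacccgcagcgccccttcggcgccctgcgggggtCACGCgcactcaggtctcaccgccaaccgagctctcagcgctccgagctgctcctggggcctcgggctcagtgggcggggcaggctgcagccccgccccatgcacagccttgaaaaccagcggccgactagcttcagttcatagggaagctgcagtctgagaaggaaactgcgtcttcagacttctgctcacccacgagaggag
Angptl4: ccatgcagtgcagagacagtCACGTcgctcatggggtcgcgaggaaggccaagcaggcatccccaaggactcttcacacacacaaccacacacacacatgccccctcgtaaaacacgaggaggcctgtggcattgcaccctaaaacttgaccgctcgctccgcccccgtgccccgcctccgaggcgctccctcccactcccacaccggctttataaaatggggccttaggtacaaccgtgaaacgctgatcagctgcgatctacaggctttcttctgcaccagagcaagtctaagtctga
The core was found in 3 of the 9 windows. It began 154 bases before the start as CACGC in Pgf, 230 bases before it as CACGT in Angptl4 and 68 bases before it as GCGTG in Vegfb, and none of the 3 lay within CACGTG. These letters were not found in the windows of Angptl1, Angptl2, Vegfc, Vegfd or either start of Vegfa. Sequence outside the windows was not searched, so an element further from a start would be missed. Of 33469 promoters of the same length in the table, 13937 (41.6%) held the core, so a match is common.

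Angptl1, a secreted protein known to restrain vessel growth, and Angpt1, the activating ligand of TIE2, were higher in every older tumor than in any younger one. Angptl1 was at 46.5, 75.3 and 76.3 CPM in older tumors 102, 107 and 116 and at 10.1, 9.5 and 15.0 CPM in younger tumors 157, 158 and 167. The lowest older tumor thus lay above the highest younger one, and tumor 167 was the highest of the younger group. The means were 66.0 ± 16.9 CPM (SD, n = 3) and 11.5 ± 2.99 CPM (SD, n = 3), 5.72 times higher in older tumors, with a fitted log2 fold change of 2.52 (standard error 0.33, edgeR). Behind these values stood 141 to 394 counts per older tumor and 54 to 63 per younger tumor. In bulk tumors, a difference in the number of cells of a type and a difference in RNA per cell cannot be told apart.

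Angpt1 was at 128, 71.1 and 52.1 CPM in older tumors 102, 107 and 116 and at 11.7, 10.4 and 17.3 CPM in younger tumors 157, 158 and 167. Here tumor 102 was the highest of the older group, the reverse of its place for Angptl1, and the groups again did not overlap. The means of 83.7 ± 39.5 CPM (SD, n = 3) and 13.1 ± 3.70 CPM (SD, n = 3) differed 6.37-fold, with a log2 fold change of 2.67 (standard error 0.41, edgeR). Among younger tumors Angptl1 and Angpt1 had the same order, lowest in 158 and highest in 167.

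Angpt2, the mostly antagonistic ligand of TIE2, went the other way in the fit. It was at 15.8, 21.3 and 14.3 CPM in older tumors 102, 107 and 116 and at 35.1, 37.6 and 18.8 CPM in younger tumors 157, 158 and 167. The groups overlapped through older tumor 107 and younger tumor 167 alone. The means were 17.1 ± 3.66 CPM (SD, n = 3) and 30.5 ± 10.2 CPM (SD, n = 3), with a log2 fold change of -0.83 (standard error 0.35, edgeR). With library totals in place of TMM scaling, an alternative chosen after seeing the data, tumor 107 was at 20.4 CPM and tumor 167 at 21.0 CPM, so the overlap depended on the scaling.

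The balance of the angiopoietins was read within each tumor as the ratio of Angpt1 to Angpt2 counts, which does not depend on library scaling. The ratio also carries the lengths of the genes, so it was compared between tumors only. It was 8.08, 3.34 and 3.64 in older tumors 102, 107 and 116 and 0.333, 0.276 and 0.924 in younger tumors 157, 158 and 167. Every older ratio lay above every younger one, with means of 2.21 ± 0.70 and -1.19 ± 0.94 on the log2 scale (SD, n = 3 each) and a difference of 3.39. The ratio reuses levels that were known when the ligands were chosen, so its separation adds no evidence to theirs.

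**Figure D1:**
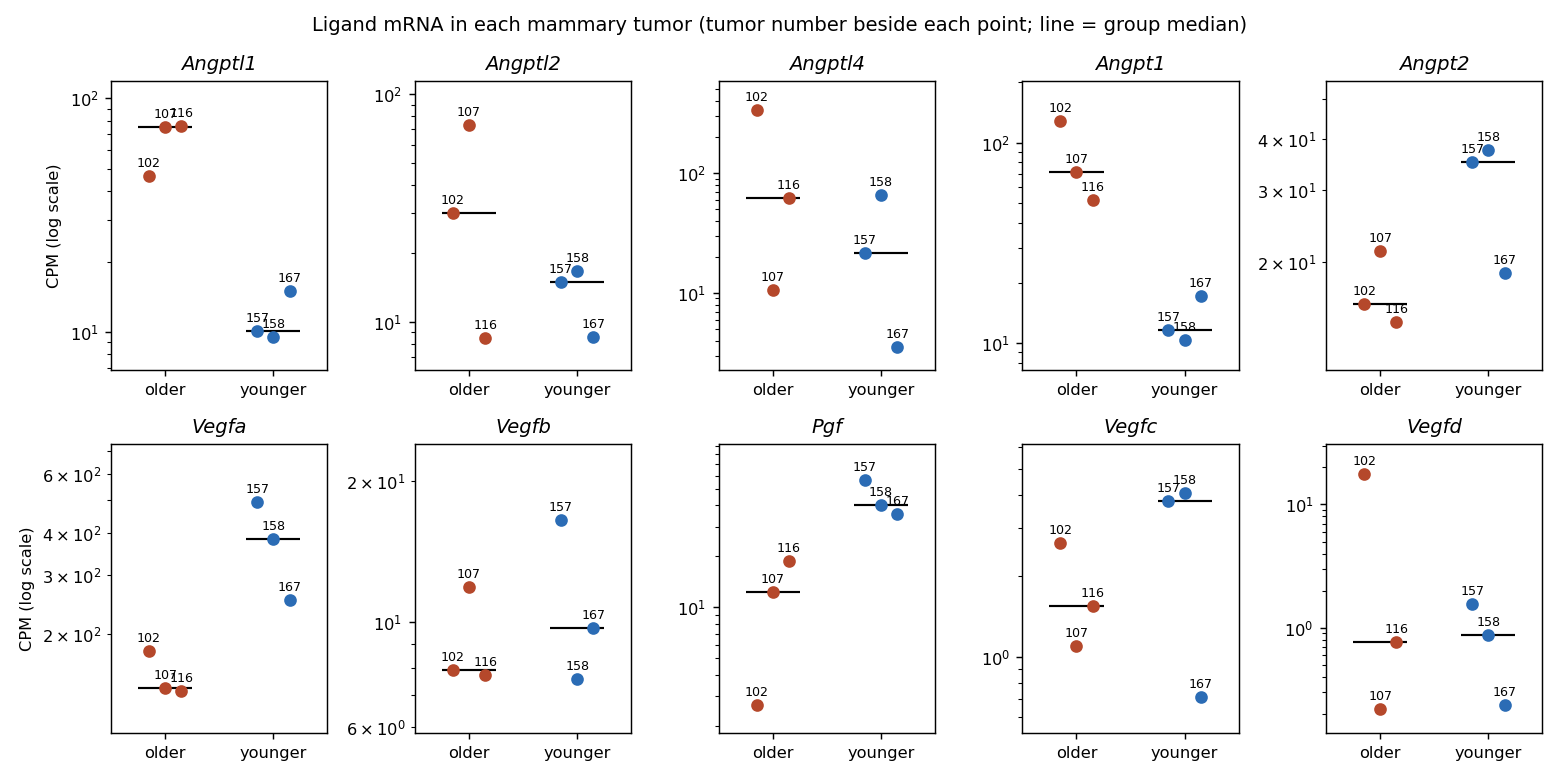
Level of each ligand in CPM on a log axis (y) in older and younger tumors (x), 1 point per tumor with its number and a line at the group median. Angptl1 and Angpt1 lie higher and Vegfa and Pgf lower in all 3 older tumors, while Angptl4 spreads from 10.5 to 333 CPM within the older group.

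Angptl2, an angiopoietin-like protein linked to inflammation, was at 30.0, 73.3 and 8.52 CPM in older tumors 102, 107 and 116 and at 15.0, 16.7 and 8.55 CPM in younger tumors 157, 158 and 167. Older tumors 102 and 107 were the highest of the 6, whereas older tumor 116 was the lowest, so the groups overlapped across the whole younger range. The log2 fold change of 1.47 (standard error 0.70, edgeR) was 0.49 without tumor 107.

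Angptl4, a lipoprotein lipase inhibitor induced by fasting, PPARs and low oxygen, was the most uneven of the 9 tested ligands. It was at 333, 10.5 and 61.6 CPM in older tumors 102, 107 and 116 and at 21.5, 65.4 and 3.56 CPM in younger tumors 157, 158 and 167. The highest and lowest tumors differed 31.6-fold within the older group and 18.4-fold within the younger one, and the groups overlapped. Its SD within groups, 2.26 on the log2 scale, was larger than that of 99.6% of the genes tested. The log2 fold change of 2.15 (standard error 1.26, edgeR) was 0.24 without tumor 102, which carried most of it.

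Tumor 102 was also the tumor with the highest adipocyte marker sum, 173 CPM over 6 genes, against 34.2 and 19.4 CPM in older tumors 107 and 116 and 6.41 to 18.7 CPM in younger tumors. Most of that sum was Fabp4, a fatty acid carrier, at 129 CPM, while Adipoq, the defining adipocyte hormone, was at 10.2 CPM there and at 0.475 to 1.55 CPM in the other 5 tumors. Plin1 and Retn were also highest in tumor 102, at 17.2 and 3.63 CPM, and Cidec was at 8.58 CPM there and 7.94 CPM in tumor 116. Lep, the gene of leptin, was instead highest in tumor 107, at 24.1 CPM against 3.96 CPM in tumor 102. The part of adipocytes in the Angptl4 value was not tested.

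Vegfa, which encodes VEGF-A, was lower in older tumors. It was at 178, 138 and 135 CPM in older tumors 102, 107 and 116 and at 493, 383 and 252 CPM in younger tumors 157, 158 and 167. The older values were close together and all below the lowest younger tumor, 167. The means were 150 ± 24.3 CPM (SD, n = 3) and 376 ± 121 CPM (SD, n = 3), 2.5 times higher in younger tumors, with a log2 fold change of -1.32 (standard error 0.31, edgeR).

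Pgf encodes placental growth factor, which binds VEGFR1 (gene Flt1), as VEGF-A also does, but not VEGFR2. It was at 2.64, 12.3 and 18.8 CPM in older tumors 102, 107 and 116 and at 56.7, 40.3 and 35.4 CPM in younger tumors 157, 158 and 167. The groups did not overlap, and tumor 102, with 8 counts, was far below the rest. The means of 11.2 ± 8.12 CPM (SD, n = 3) and 44.1 ± 11.2 CPM (SD, n = 3) differed 3.93-fold, with a log2 fold change of -1.95 (standard error 0.59, edgeR) that was -1.50 without tumor 102.

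Vegfb, whose product likewise binds VEGFR1 and not VEGFR2, showed no clear direction. It was at 7.92, 11.9 and 7.74 CPM in older tumors 102, 107 and 116 and at 16.5, 7.56 and 9.74 CPM in younger tumors 157, 158 and 167. A younger tumor was the highest and another the lowest of the 6. The log2 fold change of -0.30 (standard error 0.42, edgeR) turned to 0.08 without tumor 157.

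The ligands of the lymphatic receptor VEGFR3 (gene Flt4) were near the floor. Vegfc had 8, 5 and 8 counts in older tumors 102, 107 and 116 and 22, 23 and 3 counts in younger tumors 157, 158 and 167, or 1.1 to 2.64 CPM against 0.712 to 4.05 CPM. Younger tumors 157 and 158 were the highest and younger tumor 167 the lowest, and the log2 fold change was -0.74 (standard error 0.71, edgeR). Vegfd, which did not pass the filter, had 54 counts (17.8 CPM) in tumor 102 and between 1 and 9 counts in the other 5 tumors. Of the 5 lymphatic endothelial markers, Lyve1 was highest in tumor 102, at 9.9 CPM against 0.658 to 2.06 CPM elsewhere, and Reln lowest there, at 30.0 CPM. Prox1 was at 10.6 CPM in tumor 102 and 93.9 CPM in tumor 107, Pdpn was at 11.9 CPM in tumor 102 within the range of the others, and Ccl21 had 0 counts in tumor 102. The sum over the 5 markers, 62.3 CPM, was the lowest of the 6 tumors. Reln, at 340 to 595 CPM, made up most of the younger sums of 357 to 637 CPM, so the sum largely follows that gene. The part of lymphatic cells in the Vegfd count was not tested.

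**Figure D2:**
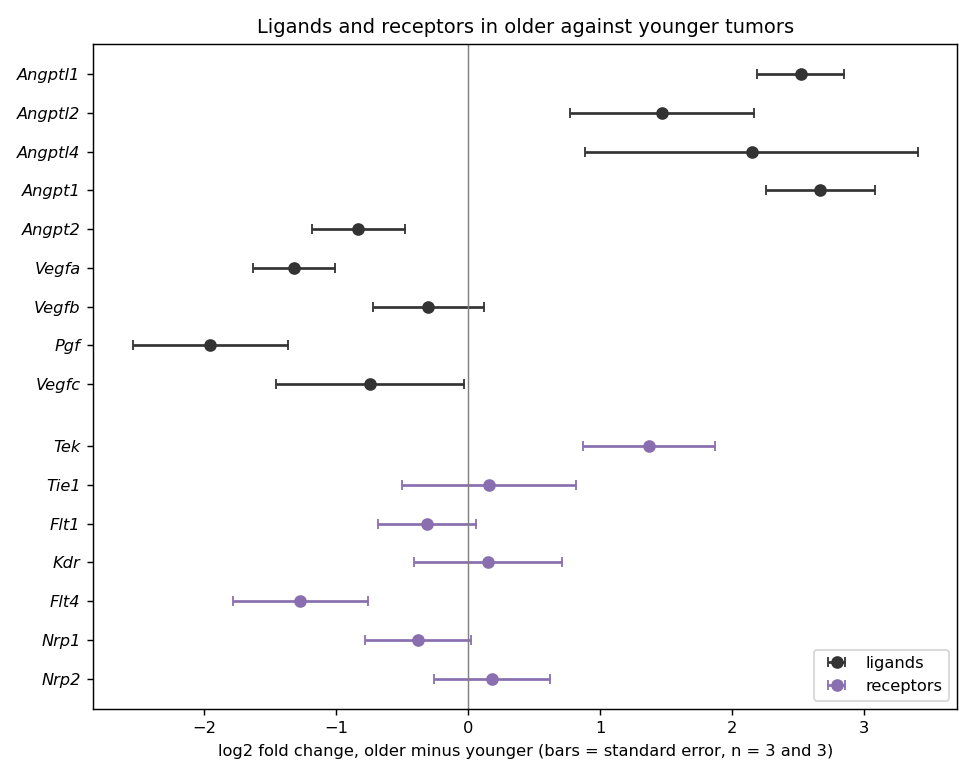
Log2 fold change, older minus younger tumors (x), for the 9 tested ligands and 7 receptors (y), with bars for the standard error of edgeR's fit, n = 3 and 3. Angptl1 and Angpt1 are at 2.52 and 2.67, Vegfa and Pgf at -1.32 and -1.95, and the receptors lie between -1.27 and 1.37.

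Over the 9 tested ligands, 4 had a positive and 5 a negative log2 fold change, with a median of -0.30 against 0.00 over the 14060 genes tested. The age groups did not overlap for 4 of the 9, against 12.2% of the genes tested: Angptl1 and Angpt1 were above the younger range, as were 6.58% of the genes tested, and Vegfa and Pgf below it, as were 5.58%. DESeq2 called 3 of the 9, Angptl1 and Angpt1 higher and Vegfa lower, against 346 genes (2.47% of those it tested), of which 1.65% were higher and 0.813% lower. With edgeR's quasi-likelihood test 0 ligands and 0 genes in all (0%) had an adjusted p under 0.05. At an unadjusted p under 0.05 stood 1202 genes (8.55%), 5.28% higher and 3.26% lower in older tumors, among them 2 ligands higher and 3 lower. Because the ligands were chosen with this contrast known, nothing is read from these counts. The edgeR p-values given below for other genes set the age difference against the spread between these 6 tumors, as estimated by the fit.

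The ligands that moved in opposite directions were set against each other within each tumor. Angptl1 counts per Vegfa count were 0.261, 0.545 and 0.565 in older tumors 102, 107 and 116 and 0.0206, 0.0248 and 0.0593 in younger tumors 157, 158 and 167, a difference of 3.79 between the log2 means. As both genes separate the age groups on their own, in opposite directions, this ratio had to separate them too. Ligands that moved the same way kept a steadier ratio in younger tumors. Angptl1 per Angpt1 was 0.868, 0.915 and 0.863 there but 0.363, 1.06 and 1.46 in older tumors 102, 107 and 116, and the log2 means differed by -0.09. Vegfa per Pgf was 8.7, 9.51 and 7.13 in younger tumors 157, 158 and 167 and 67.6, 11.2 and 7.19 in older tumors 102, 107 and 116, so tumor 102 stood apart in both ratios.

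**Figure D3:**
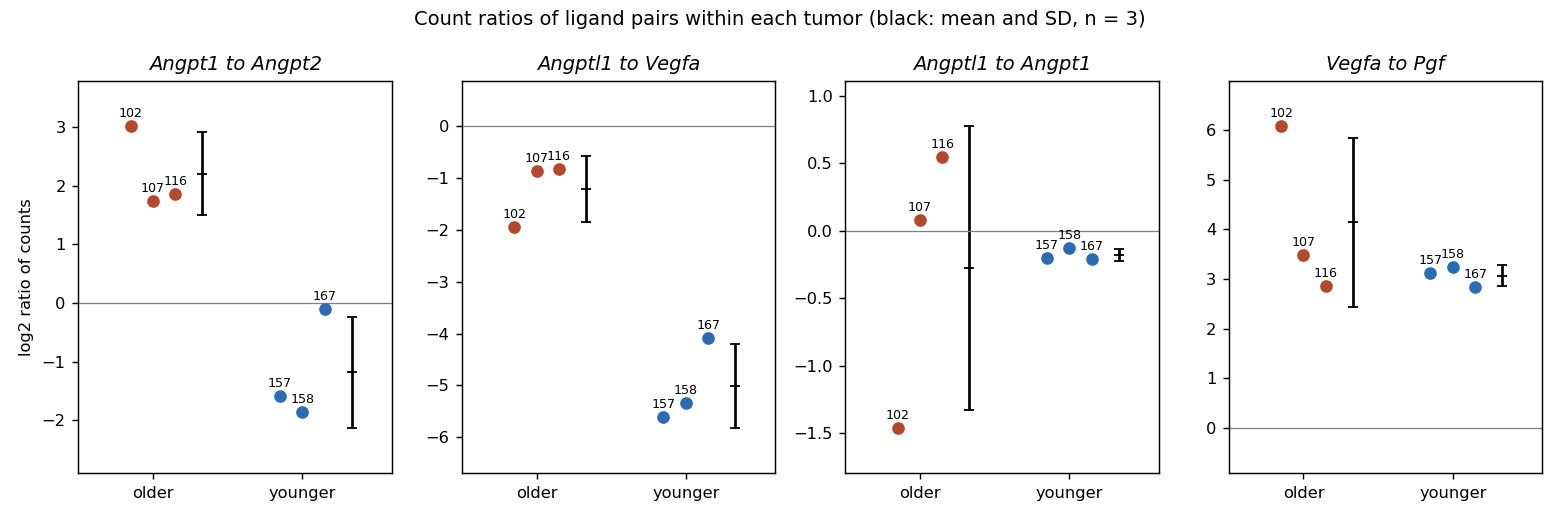
Log2 ratio of the counts of 2 ligands within each tumor (y) in older and younger tumors (x), with points for tumors and bars for mean ± SD, n = 3. The log2 means of Angpt1 to Angpt2 and Angptl1 to Vegfa differ by 3.39 and 3.79 between the age groups, whereas Angptl1 to Angpt1 and Vegfa to Pgf overlap. The ratios reuse the ligand levels and add no evidence to them.

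The receptor list and the other gene lists below were, like the ligands, chosen with earlier results of these data known, so their p-values are not independent evidence. Of 7 receptors, 0 passed an adjusted p of 0.05 in either direction, with 1 higher and 1 lower at an unadjusted p under 0.05. Of all genes tested, 5.28% were higher and 3.26% lower at that unadjusted threshold. Tek was at 25.1, 14.9 and 7.36 CPM in older tumors 102, 107 and 116 and at 5.5, 4.92 and 7.84 CPM in younger tumors 157, 158 and 167. Tumors 102 and 107 lay above the younger group and tumor 116 within it. The log2 fold change of Tek was 1.37 (standard error 0.50, 95% interval 0.20 to 2.54, adjusted p = 0.491, edgeR) and 0.87 without tumor 102, and that of Tie1, the partner receptor of TIE2, was 0.16 (standard error 0.66, adjusted p = 0.977).

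Of the VEGF receptors, Flt4 had the lowest fitted change, -1.27 on the log2 scale (standard error 0.51, adjusted p = 0.551, edgeR). Flt1 was at -0.31 (standard error 0.37, adjusted p = 0.906, edgeR) and Kdr at 0.15 (standard error 0.56, adjusted p = 0.976). The coreceptors Nrp1 and Nrp2, which bind VEGF-A and VEGF-C beside these receptors, were at -0.38 (standard error 0.40, adjusted p = 0.888, edgeR) and 0.18 (standard error 0.44, adjusted p = 0.957). The median over the 7 receptors was 0.15, and their age groups overlapped for each of the 7. The 95% intervals were wide, from -1.17 to 0.54 for Flt1, from -1.16 to 1.46 for Kdr and from -2.46 to -0.08 for Flt4.

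Endothelial marker levels were taken as a rough guide to the amount of vessel transcripts beside which the ligands were read. The 8 tested markers did not move alike, with 6 positive and 2 negative log2 fold changes. Pecam1 was at 1.24 (standard error 0.76, edgeR), Cdh5 at -0.45 (standard error 0.69) and Ecscr at -0.54 (standard error 0.73). The score, a mean log2 CPM of these 8 markers, was 4.56, 4.41 and 2.95 in older tumors 102, 107 and 116. It was 3.99, 4.46 and 2.73 in younger tumors 157, 158 and 167. The groups overlapped, with means of 3.97 ± 0.89 and 3.73 ± 0.89 (SD, n = 3 each), and a gap of 0.24 within that spread (two-sided exact permutation test, p = 0.6, where 3 against 3 cannot go below 0.1). Its sign rested on single libraries, at -0.05 without tumor 102 and -0.25 without tumor 167. On the log2 scale relative to this score, Angpt1 was at 1.75 to 2.76 in older and -1.03 to 1.42 in younger tumors. The difference of means was 2.32, and the groups did not overlap. Angptl1 relative to the score overlapped, because older tumor 102 was at 0.99 and younger tumor 167 at 1.21, and the difference of means was 2.22. Vegfa relative to the score was at 2.71 to 4.13 in older and 4.12 to 5.25 in younger tumors, an overlap between tumors 116 and 158, with a difference of -1.52. These values reuse ligand levels that were known when the ligands were chosen, so they add no evidence to the age differences.

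Marker sums of some other cell types did not overlap between the age groups. Macrophage markers summed to 169 to 307 CPM in older and 80.0 to 131 CPM in younger tumors, with 6 of 6 log2 fold changes positive and 0 genes called by edgeR. Singly, 3 of the 6 lay above the younger range, as did 6.58% of all genes tested. Tumor 102 was highest for Cd163, at 57.1 CPM against 1.9 to 4.61 CPM elsewhere. It was also highest for Mrc1, at 74.2 CPM against 9.02 to 22.7 CPM, but lowest for C1qa, at 18.5 CPM. Of the 14060 genes tested, 6980 had a positive and 7080 a negative log2 fold change. Epithelial markers summed to 1130 to 1450 CPM in older and 1830 to 2400 CPM in younger tumors, with 5 of 5 negative and 0 called. Singly, 2 of the 5, Epcam and Krt8, lay below the younger range, as did 5.58% of all genes tested, and Krt18 was at -0.09. Adipocyte sums lay narrowly apart, at 19.4 to 173 and 6.41 to 18.7 CPM, though 0 of the 3 tested adipocyte markers did. The part of these cells in the values of Angptl1, Angpt1, Vegfa and Pgf was not tested. Fibroblast sums overlapped, at 727 to 896 and 567 to 930 CPM, and so did pericyte sums, at 175 to 493 and 287 to 520 CPM. The fibroblast markers were uneven among themselves: in tumor 107 Pdgfra, Dcn, Lum and Dpt were the lowest of the 6 tumors, at 0.219 to 2.19 CPM, Col1a1 was at 65.8 CPM and Col14a1 was the highest of the 6, at 827 CPM. The part of fibroblasts in the ligand values was not tested. The endothelial sums were 96.6 to 376 and 65.1 to 298 CPM, the lymphatic sums 62.3 to 451 and 357 to 637 CPM, with the marker Ccl21 at 0 counts in every tumor but 157, and the skeletal muscle sums 5.81 to 52.4 and 15.9 to 24.8 CPM in older and younger tumors.

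Vegfa is a target of the hypoxia response, and 8 other hypoxia-inducible genes, a list chosen with earlier results known and no independent evidence of a direction, were examined beside it. The log2 fold change was negative for 8 of 8, with a median of -1.42 against 0.00 over all genes tested, and 4 lay below the younger range in every older tumor, against 5.58% of the genes tested. None of the 8 passed edgeR's adjusted threshold, with 4 lower at an unadjusted p under 0.05, against 3.26% of all genes tested. DESeq2 called Slc2a1, Pgk1, Ldha and Car9 lower, against 0.813% of the genes it tested. For Car9, a carbonic anhydrase at the cell surface, the fitted change was -3.08 on the log2 scale (standard error 0.36, adjusted p = 0.156, edgeR). Pgk1, a glycolytic enzyme, was at -1.57 (standard error 0.30, adjusted p = 0.228, edgeR), and Slc2a1, the glucose transporter GLUT1, was at -2.00 (standard error 0.42, adjusted p = 0.265, edgeR). The sum over the list was 638 to 887 CPM in older and 1250 to 2270 CPM in younger tumors. Vegfa was lower in older tumors, as these sums were, whereas Angptl4, also inducible by low oxygen, overlapped between the groups. For the genes of the list other than Slc2a1, Pgk1, Ldha and Car9 the age groups overlapped too. Whether oxygen had a part in the Vegfa values was not tested.

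**Figure D4:**
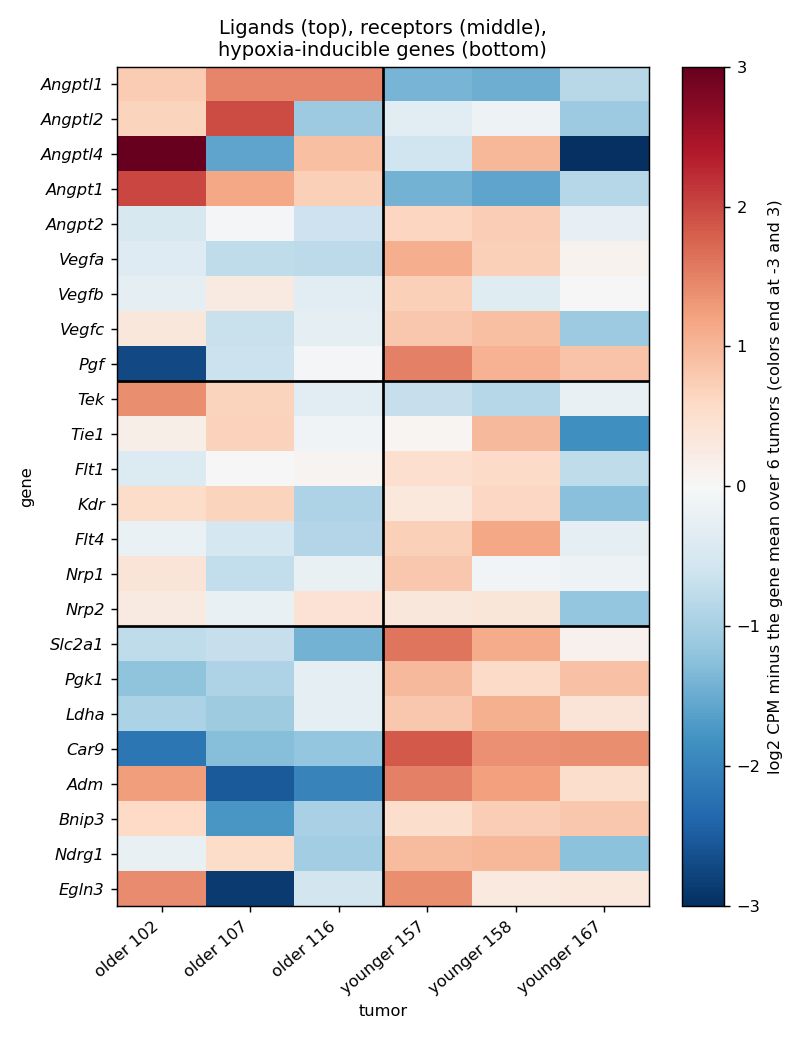
Log2 CPM minus the mean of the 6 tumors (color, ending at -3 and 3) for tested ligands, receptors and hypoxia-inducible genes (rows) in each tumor (columns). Vegfa and Pgf share the blue older and red younger columns of Slc2a1, Pgk1, Ldha and Car9, though faintly for Pgf in tumor 116 (-0.052) and Vegfa in tumor 167 (0.117). Angptl1 and Angpt1 are reversed. The receptors show no common pattern by age, and all lie below their means in tumor 167.

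Among 6 genes around the lipase that Angptl4 inhibits, edgeR called 0. In older tumors 1 was higher at an unadjusted p under 0.05, as were 5.28% of all genes tested. Lpl, lipoprotein lipase itself, was at 252 to 497 CPM in older tumors, above every younger tumor, with a log2 change of 1.75 (standard error 0.52, adjusted p = 0.366, edgeR). Pdk4, a PPAR target that limits glucose oxidation, was at 1160 CPM in tumor 102 against 70.5 CPM or less in older tumors 107 and 116, and its log2 change of 1.69 (standard error 1.67, adjusted p = 0.878, edgeR) was -1.54 without that tumor. Pdk4 and Angptl4 were thus both highest in tumor 102, lowest among older tumors in 107, and highest among younger tumors in 158. Cpt1a, which carries fatty acids into mitochondria, was at 0.32 (standard error 0.43, adjusted p = 0.92, edgeR).

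Genes of endothelial tip cells, the cells at the front of a VEGF-driven sprout, had negative log2 fold changes in 6 of 6, with a median of -0.61. Of all 14060 genes tested, 7080 were negative. The smallest of the 6 changes was -0.02, the age groups overlapped for every gene but Esm1, and edgeR called 0 of them. Esm1, a proteoglycan induced by VEGF-A, was at 0.33, 7.68 and 2.13 CPM in older tumors 102, 107 and 116, below every younger tumor, and fitted at -2.34 on the log2 scale (standard error 0.83, adjusted p = 0.465, edgeR). Tumor 102 had 1 count of Esm1, and its fitted change ranged from -3.70 without tumor 107 to -1.87 without tumor 102. Unc5b, a guidance receptor, was at -0.93 (standard error 0.40, adjusted p = 0.587, edgeR) and Apln, the peptide ligand apelin, at -0.58 (standard error 0.54, adjusted p = 0.872, edgeR).

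The genes whose levels over the 6 tumors were most like those of Angptl1 and Vegfa were ranked by the root mean square difference of log2 CPM centred on each gene's mean. For Angptl1 these were Il36rn, an interleukin 36 receptor antagonist (0.20), Ighm, the immunoglobulin mu heavy chain, whose reads may be split between copies (0.38), Mefv (0.38), Gulp1, an adaptor for engulfing dying cells (0.39), and the receptor Adgrf1 (0.39). The median over all genes tested was 1.34. For Vegfa they were Pgm1 (0.13) and Hk2 (0.13), enzymes of glucose phosphate metabolism, the potassium channel subunit Kcne3 (0.18), AABR07044301.1 (0.20) and the glycogen synthase gene Gys1 (0.20), with a median of 0.83 over all genes tested. Il36rn, Mefv, Adgrf1 and Kcne3 lay at few counts in younger or older tumors, which limits that likeness. Angptl1 and Vegfa were chosen with their age contrast known, so genes with the same step between the age groups rank first. Except for AABR07044301.1, the age groups did not overlap for any gene named here. The likeness is thus no evidence of shared control beyond that contrast.

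**Figure D5:**
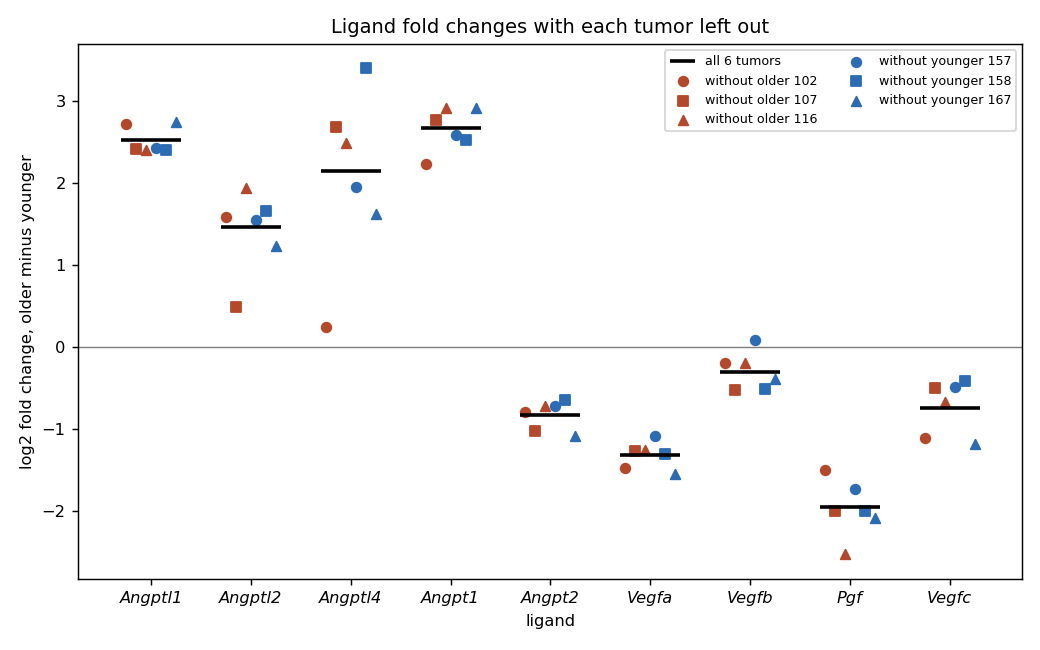
Log2 fold change, older minus younger tumors (y), of each tested ligand (x) with all 6 tumors (bar) and with each tumor left out (symbols). Angptl1 stays between 2.40 and 2.74 and Vegfa between -1.55 and -1.08, whereas Angptl4 drops to 0.24 without tumor 102 and Angptl2 to 0.49 without tumor 107.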

How the data were processed

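Bulk RNA-seq was measured in 6 tumors, grouped by the age class in the sample titles. The authors deposited whole-number read counts per gene without normalization. Per the submitters' processing notes and methods, reads went through FastQC 0.11.7, Trimmomatic 0.38, STAR 2.7.9a, Picard 2.18.12 and HTSeq 0.13.5, with build mRatBN7.2. The annotation, the strand setting and whether marked duplicates were counted are not given in the sources used here. The labels give polyA RNA and reads of 100 bases, whereas the protocol describes ribosomal RNA depletion. ERCC spike-ins were added, and the table has 0 ERCC rows.

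The analysis ran in R (4.3.3), with the packages edgeR (version 4.0.16), limma (version 3.58.1) and DESeq2 (version 1.42.0). Rows were kept with filterByExpr by age group (14060 of 30562, of which 4367 carry no name), scaled by TMM and compared by edgeR's quasi-likelihood test with age as the sole term, p-values being adjusted by Benjamini-Hochberg against a threshold of 0.05. Standard errors were calculated back from the F statistic, and log2 CPM used a prior count of 2. The endothelial score was compared by a two-sided exact permutation test. The scripts were checked on simulated data. Column names matched the sample titles and 0 columns were unused.

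The members and gene lists were chosen with earlier results of these data known. Named were the ligands, the receptors, the genes of other lists past the threshold or otherwise the 3 with the smallest p, and the 5 genes most like Angptl1 and Vegfa. The alternatives were other scalings, tests and low-count filters, a fit without the 10 genes of highest abundance, other measures of likeness and the omission of each tumor. The markers Cldn5, Krt14 and Mylpf and the study's other assays were not analysed here. A further gene of the lists is not reported here. Promoter sequences come from RefSeq GRCr8, and no coordinates were converted between builds.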

Additional observations from a re-analysis of the deposited data

How the results depend on the processing

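No paired analysis was possible because each tumor number occurs in a single age group. The order of ligand levels per length was not run because no exon lengths were used here. The number of genes called, 0 with edgeR's quasi-likelihood test (1202 at an unadjusted p under 0.05), was 346 with DESeq2 and 1, a row without a name, when every gene with at least 1 count was tested, where 1820 genes had an unadjusted p under 0.05. DESeq2 called 4 of the pathway genes, against 0 with edgeR, beside 2.47% of all genes it tested. The cause of these differences was not tested. The difference in endothelial score, 0.24, ranged from -0.25 to 0.75 with each tumor left out. Of the 10 genes most like Angptl1 and Vegfa, 3 were kept when log2 CPM was also scaled by its SD.

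The log2 fold changes of the ligands kept their sign under every alternative run except Vegfb, which ranged from -0.52 to 0.08 with each tumor left out. Non-overlapping ligands numbered 4, and 5 with library totals, where Angpt2 joined them. Among receptors and pathway genes the sign turned, only with a tumor left out, for Tie1 (-0.30 to 0.93), Kdr (-0.24 to 0.52), Nrp2 (-0.17 to 0.41), Angptl7 (-0.21 to 0.81), Pdk4 (-1.54 to 4.92), Cpt1a (-0.35 to 0.60) and Thbs2 (-0.10 to 3.08). Depth limits Vegfc, with 3 to 23 counts per tumor, Vegfd, with 1 to 54, and, in tumor 102, Pgf, with 8, and Esm1, with 1.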

Other observations

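Of 6 secreted inhibitors of vessel growth other than Angptl1, edgeR's quasi-likelihood test called 0, with 0 at an unadjusted p under 0.05 and 0 by DESeq2, and 2 had a positive and 4 a negative log2 fold change, older against younger. Thbs1, thrombospondin 1, was at -0.66 (standard error 0.33, adjusted p = 0.68, edgeR). Col18a1, the source of endostatin, was at -0.92 (standard error 0.53, adjusted p = 0.742, edgeR). Thbs2 was at 1.86 (standard error 1.2, adjusted p = 0.78, edgeR), with 118 counts in tumor 102 and 2 to 52 in the other 5 tumors, and fell to -0.10 without tumor 102.

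Among further angiopoietin and angiopoietin-like genes, Angpt4 and Angptl8 did not pass the filter on low counts. Of those tested, 0 were called by edgeR, with 0 at an unadjusted p under 0.05 and 0 by DESeq2. The log2 fold change was -0.64 for Angptl6 (standard error 0.56, adjusted p = 0.859, edgeR) and 0.46 for Angptl7 (standard error 0.54, adjusted p = 0.906, edgeR). Angptl6 was at 16.0 and 13.4 CPM in older tumors 107 and 116 and at 6.93 CPM in older tumor 102.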
